A study of Mus musculus with 28 samples.

Results

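The genes described here are 40 genes of the mammalian cell division cycle, running from the G1 cyclins to the enzymes and motors of mitosis and cytokinesis. They were chosen by name, and 1 probe set stood for each gene, the one whose average across the 28 arrays was greatest. Of the 40 genes, 39 were measured among 18193 genes. The remaining gene, Ccnb1, had no probe set listed with it in the annotation used and was not analysed here.

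The cells were macrophages (bone marrow-derived, from C57BL/6 J mice of 12 weeks), and their total RNA was hybridised to Affymetrix arrays covering the mouse genome. There were 7 groups with 4 biological replicates in each. In the compound experiment, macrophages of Nrf2 -/- mice (KO) and of Nrf2 +/+ mice (WT) received RA839 or only its solvent DMSO, for 4 h and at 0.2% DMSO throughout, which gave the groups KO with RA839, KO with DMSO, WT with RA839 and WT with DMSO. RA839 is a small molecule that binds Keap1, and its dose in these groups was not given in the sources used here. In the siRNA experiment, macrophages of Nrf2 +/+ mice received siKeap1-1, siKeap1-2 (both siRNAs against Keap1) or siControl, with the time and siRNA sequences not given in the sources used here. No group combined an siRNA with the Nrf2 deletion, and the labels do not describe how the deletion was made.

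Cells that commit to divide switch on cyclins D and E, whose kinases release E2F factors from the retinoblastoma protein. E2F targets then load the MCM helicase on origins, build nucleotides and copy the DNA. Later, cyclins A and B with Cdk1 drive entry into mitosis, where Aurora, Polo and checkpoint kinases control chromosome attachment and separation, and motors and bundling proteins build the spindle and the cleavage site. Keap1 marks the transcription factor Nrf2, encoded by Nfe2l2, for destruction, and bone marrow macrophages divide in culture while they receive their growth factor.

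The sequences just upstream of 6 members are shown, 4 that fell with siKeap1-1 (Nusap1, Birc5, Rrm2 and Top2a) and 2 that differed between the Keap1 siRNAs (Mcm2 and Cdc6). Each line gives the 250 bases before the RefSeq transcript start, in assembly GRCm38.p6, from 5′ to 3′ on the gene's strand. Capitals mark the letters of any of 4 motifs: the CHR element (TTTGAA) and the CCAAT box (CCAAT), which are known from promoters of mitotic genes, the E2F site (TTTCCCGC, TTTGGCGC, TTTCGCGC or TTTGCCGC), and the core of the antioxidant response element (TGACNNNGC), to which Nrf2 binds. Each was searched on both strands, and matches of different motifs may share bases.
Nusap1: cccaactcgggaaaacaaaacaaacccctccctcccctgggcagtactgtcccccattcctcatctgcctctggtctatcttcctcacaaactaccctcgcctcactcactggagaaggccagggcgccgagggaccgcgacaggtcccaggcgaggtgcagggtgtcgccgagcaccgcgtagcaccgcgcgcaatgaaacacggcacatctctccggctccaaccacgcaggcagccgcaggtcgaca
Birc5: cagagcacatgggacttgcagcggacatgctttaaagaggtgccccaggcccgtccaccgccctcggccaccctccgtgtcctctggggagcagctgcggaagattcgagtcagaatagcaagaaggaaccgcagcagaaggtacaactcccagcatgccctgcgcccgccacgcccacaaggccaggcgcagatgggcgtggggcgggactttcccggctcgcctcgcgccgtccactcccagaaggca
Rrm2: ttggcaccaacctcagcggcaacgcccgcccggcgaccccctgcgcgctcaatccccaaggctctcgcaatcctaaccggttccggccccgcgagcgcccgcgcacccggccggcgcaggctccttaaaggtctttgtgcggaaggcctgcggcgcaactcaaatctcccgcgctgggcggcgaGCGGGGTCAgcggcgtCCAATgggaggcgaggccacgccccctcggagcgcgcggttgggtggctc
Top2a: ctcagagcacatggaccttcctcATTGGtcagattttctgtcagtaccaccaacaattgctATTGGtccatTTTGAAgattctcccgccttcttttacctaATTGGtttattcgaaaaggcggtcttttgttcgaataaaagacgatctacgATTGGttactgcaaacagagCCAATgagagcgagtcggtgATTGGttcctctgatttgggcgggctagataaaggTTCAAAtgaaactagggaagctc
Mcm2: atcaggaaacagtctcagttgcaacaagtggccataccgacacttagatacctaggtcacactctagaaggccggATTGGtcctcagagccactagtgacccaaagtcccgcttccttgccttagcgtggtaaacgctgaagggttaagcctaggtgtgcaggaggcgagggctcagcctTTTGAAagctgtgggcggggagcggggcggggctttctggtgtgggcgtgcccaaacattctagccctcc
Cdc6: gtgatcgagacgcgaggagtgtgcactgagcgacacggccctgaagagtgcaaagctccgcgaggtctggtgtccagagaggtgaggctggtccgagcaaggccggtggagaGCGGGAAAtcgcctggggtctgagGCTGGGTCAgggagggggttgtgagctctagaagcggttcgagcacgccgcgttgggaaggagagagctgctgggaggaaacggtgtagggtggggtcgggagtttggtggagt
The Nusap1 stretch is chr2:119618048-119618297 on the plus strand. The Birc5 stretch is chr11:117848987-117849236 on the plus strand. The Rrm2 stretch is chr12:24708004-24708253 on the plus strand. The Top2a stretch is chr11:99024190-99024439 on the minus strand. The Mcm2 stretch is chr6:88898781-88899030 on the minus strand. The Cdc6 stretch is chr11:98907901-98908150 on the plus strand. Top2a carried 6 CCAAT boxes and 2 CHR elements, the most of the 6. Rrm2 held 1 CCAAT box and 1 antioxidant core, Mcm2 held 1 CHR element and 1 CCAAT box, and Cdc6 held 1 E2F site and 1 antioxidant core. None of these letters occurred in the windows of Nusap1 and Birc5, which says nothing about the factors that bind there. RefSeq promoter entries matched 31 measured members and not Ccnd1, Ccne2, Mcm4, Ccna2, Foxm1, Aurkb, Tpx2 or Kif20a. A CCAAT box stood in 24 of 31 member promoters (77.4%), against 33.8% of all 32851 promoters of the table. CHR letters stood in 8 of 31 (25.8%), against 16% of all promoters, E2F letters in 5 of 31 (16.1%), against 1.86%, and the antioxidant core in 5 of 31 (16.1%), against 10.2%. The first entry stood for each member, while the shares over all promoters count every entry of the table, so the units differ. These shares describe the windows and were not tested.

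The labels were checked first. Nfe2l2 averaged 3.27 in KO with RA839 and 3.40 in KO with DMSO, against 12.30 in WT with RA839 and 12.72 in WT with DMSO (log2 values). Keap1 averaged 9.06 with siKeap1-1 and 9.26 with siKeap1-2, against 11.09 with siControl. The expression values were log2 values made by RMA, and array medians lay between 5.61 and 5.71 in the compound experiment and between 5.91 and 5.96 in the siRNA experiment, so every test was made within an experiment. WT with RA839, array 2, stood apart. Its Gapdh 3′ probe set exceeded the 5′ one by 3.74 log2 units, against 0.77 to 1.00 on the other compound arrays. The Actb 3′ to 5′ gap split the genotypes without overlap. It was 1.28 to 1.43 in KO with DMSO and 1.32 to 1.45 in KO with RA839. In WT it was 1.68 to 1.98 with DMSO and 1.70 to 3.10 with RA839. Its part in the differences between KO and WT was not tested. Macrophage markers were strong in every group, with a log2 summed level of 8 markers between 16.18 and 16.54. The number of arrays limits the precision of every value. In these bulk samples, fewer dividing cells and less RNA per dividing cell cannot be told apart.

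**Figure D1:**
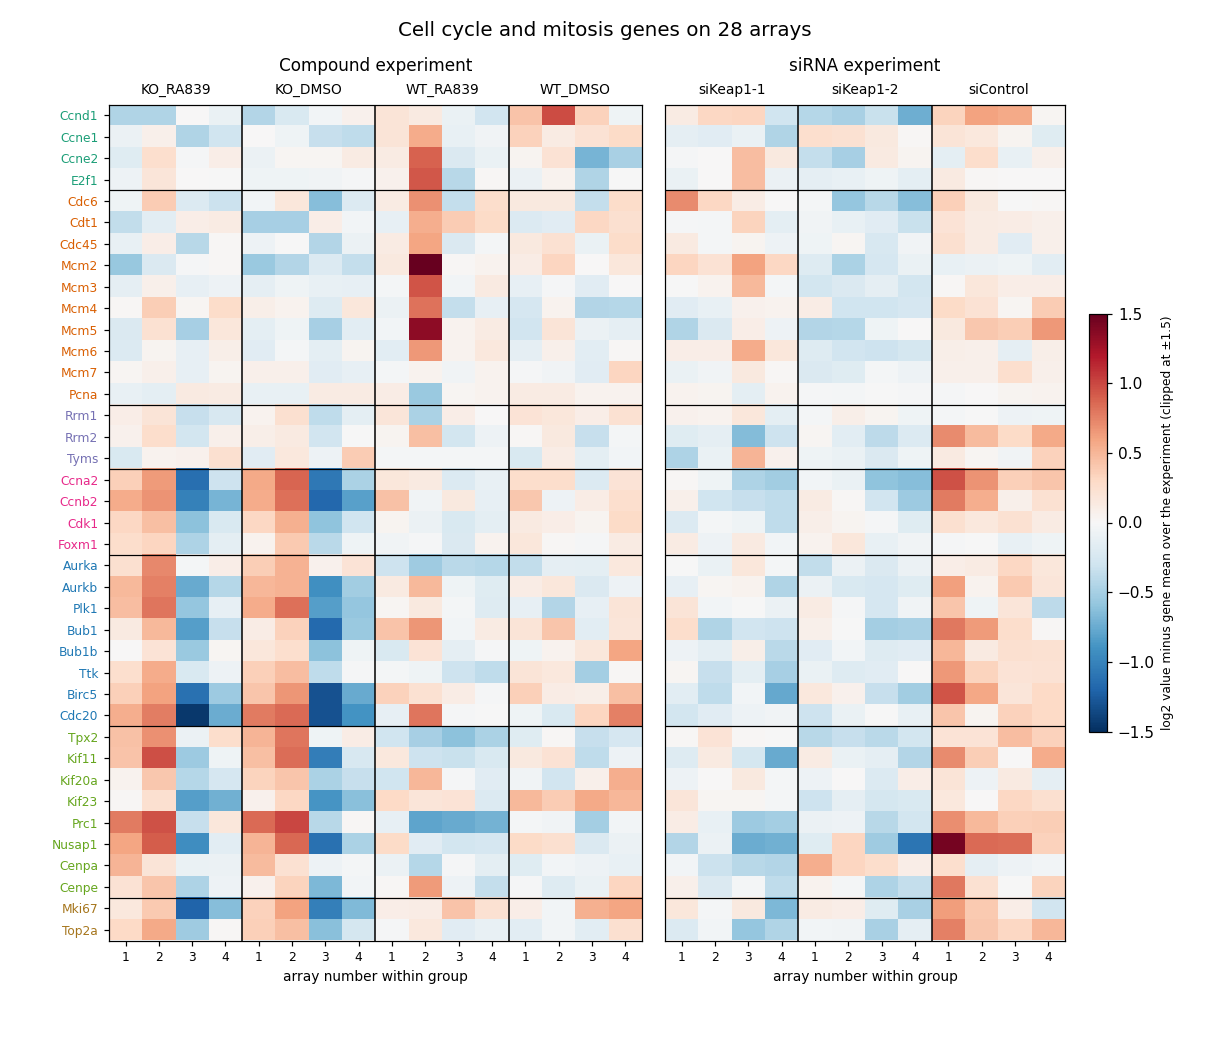
Values of the 39 measured members (rows, coloured by role) on the 28 arrays (columns, grouped by treatment), as log2 value minus the gene's mean over its experiment. In the siRNA experiment the mitotic rows are darkest red in the siControl arrays; in the compound experiment they split the KO arrays, with arrays 1 and 2 high and array 3 low in both KO groups.

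Most members that passed were lower with the Keap1 siRNAs, many of them genes of mitosis. With siKeap1-1, 16 of 39 members passed the threshold (limma, Benjamini-Hochberg adjusted p under 0.05 over 18193 genes): 15 were lower and 1, Mcm2, was higher. Over all genes tested, 15.1% passed, 8.67% higher and 6.39% lower. With siKeap1-2, 16 of 39 members passed and all 16 were lower, where 11.2% of all genes passed, 6.32% higher and 4.89% lower. The median member differed by -0.27 with siKeap1-1 and by -0.41 with siKeap1-2 (log2), while the median over all genes was 0.02 and 0.03. It was -0.16 and -0.21 over the 33 members left without probe sets that may match several transcripts, and -0.25 and -0.22 with the mean over a gene's probe sets. All 4 arrays lay below all 4 siControl arrays for 12 members with siKeap1-1, where 8.50% of all genes did so, and for 23 members with siKeap1-2, where 8.84% of all genes did so. The 2 comparisons share the 4 siControl arrays, so their values are given side by side and not as 2 independent results. With the replicate number as a block, 22 members passed with siKeap1-1 (21 lower) and 27 with siKeap1-2 (26 lower, and Cenpa higher), where 24% and 20.4% of all genes passed. The block added Ccnd1, Ccne1, Bub1, Cenpa, Cenpe and Mki67 with siKeap1-1. With siKeap1-2 it added Cdc6, Cdt1, Mcm3, Ccnb2, Cdk1, Bub1, Birc5, Kif11, Cenpa, Cenpe and Mki67. When all 28 arrays shared 1 fit, 4 members passed with siKeap1-1 and 3 with siKeap1-2.

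**Figure D2:**
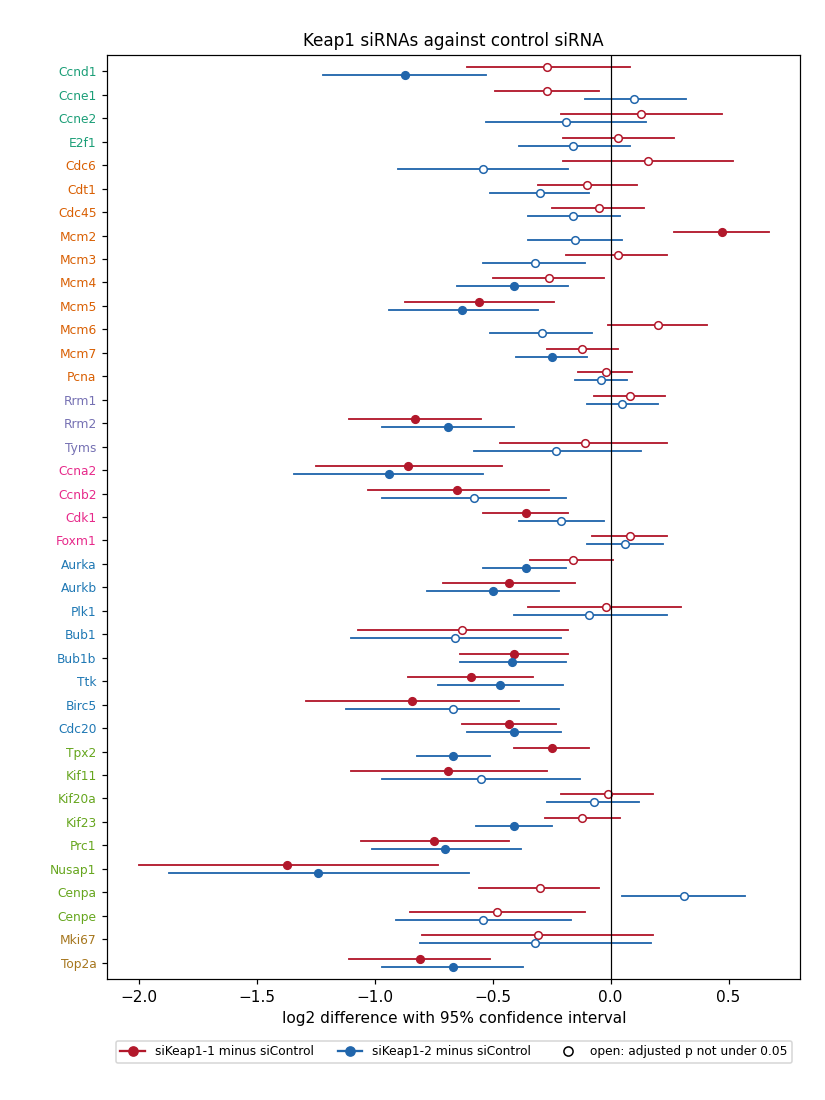
Log2 difference of each Keap1 siRNA from siControl for the 39 measured members, with 95% confidence intervals; red is siKeap1-1, blue is siKeap1-2, and open circles did not pass the threshold. Nusap1 lies farthest left for both siRNAs (-1.37 and -1.24), and Mcm2, at 0.47 with siKeap1-1, is the only filled circle right of 0.

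Of the 4 genes that start S phase, 0 passed with siKeap1-1 and 1, Ccnd1, fell with siKeap1-2. Ccnd1, the cyclin D1 that activates Cdk4 and Cdk6, measured 11.42, 11.60, 11.61 and 10.99 with siKeap1-1 and 10.86, 10.81, 10.96 and 10.56 with siKeap1-2, against 11.62, 11.89, 11.86 and 11.32 with siControl. Every siKeap1-2 array lay below every siControl array, while the siKeap1-1 arrays overlapped with them. The difference from siControl was -0.87 ± 0.16 with siKeap1-2 (SE; 1.83-fold lower, adjusted p = 0.00377), and -0.27 ± 0.16 with siKeap1-1 (adjusted p = 0.318). Ccne1, the cyclin E1 that drives entry into S phase with Cdk2, measured 9.96, 9.93, 10.00 and 9.64 with siKeap1-1, 10.35, 10.32, 10.24 and 10.11 with siKeap1-2, and 10.29, 10.26, 10.14 and 9.92 with siControl. It passed in neither comparison with siControl. Ccne2, the other E cyclin, and E2f1, an activator of S-phase genes, lay between -0.19 and 0.13 in both comparisons, and none of these 4 values passed.

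The 10 licensing and replication fork genes went separate ways with siKeap1-1, 1 higher and 1 lower past the threshold, while 3 were lower with siKeap1-2. Mcm2, a subunit of the MCM helicase, measured 8.04, 7.93, 8.32 and 8.02 with siKeap1-1 and 7.52, 7.24, 7.46 and 7.61 with siKeap1-2, against 7.60, 7.63, 7.65 and 7.56 with siControl. All siKeap1-1 arrays lay above all siControl arrays, by 0.47 ± 0.09 (1.38-fold, adjusted p = 0.00467). The other Mcm2 probe set gave 0.48 with siKeap1-1. The siKeap1-2 value of Mcm2 was -0.15 ± 0.09 (adjusted p = 0.346). Mcm5, another helicase subunit, measured 7.18, 7.42, 7.73 and 7.55 with siKeap1-1 and 7.19, 7.20, 7.57 and 7.64 with siKeap1-2, against 7.78, 8.04, 8.0 and 8.28 with siControl. Both siRNA groups lay wholly below siControl, by -0.56 ± 0.14 (adjusted p = 0.0222) with siKeap1-1 and by -0.63 ± 0.14 (adjusted p = 0.0156) with siKeap1-2. Without 1 of 4 arrays (siControl 2 or 4, siKeap1-1 1 or 2) the siKeap1-1 call of Mcm5 was lost, with adjusted p between 0.0542 and 0.0647, and without siKeap1-2 array 2 its siKeap1-2 call was lost (adjusted p = 0.0532).

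The helicase subunits Mcm4 (-0.41) and Mcm7 (-0.25), passed with siKeap1-2, and lost that call when any 1 of 6 arrays (Mcm4) or 9 arrays (Mcm7) was left out, with adjusted p up to 0.0832 and 0.113. Cdc6, which loads the helicase on origins, measured 7.31, 6.92, 6.72 and 6.61 with siKeap1-1 and 6.58, 6.02, 6.19 and 5.97 with siKeap1-2, against 6.96, 6.75, 6.60 and 6.62 with siControl. The siKeap1-2 arrays lay below the siControl arrays, by -0.54 ± 0.16 (adjusted p = 0.0555, and 0.00142 with the replicate block). Mcm6 measured 9.98, 9.98, 10.43 and 10.05 with siKeap1-1 and 9.69, 9.59, 9.57 and 9.62 with siKeap1-2, against 9.97, 9.95, 9.75 and 9.97 with siControl. All siKeap1-1 arrays lay above siControl and all siKeap1-2 arrays below it, but neither difference passed (0.20, adjusted p = 0.205, and -0.29, adjusted p = 0.076). Cdt1, which loads the helicase together with Cdc6, Mcm3 and Cdc45, a helicase activator, lay between -0.32 and 0.03 in both comparisons without passing. Pcna, the sliding clamp of DNA polymerases, stayed between 13.53 and 13.73 on all 12 arrays.

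Of the 3 nucleotide supply genes, Rrm2 passed with both siRNAs. Rrm2, the small subunit of ribonucleotide reductase whose level follows S phase, measured 11.59, 11.64, 11.12 and 11.46 with siKeap1-1 and 11.80, 11.62, 11.38 and 11.57 with siKeap1-2, against 12.48, 12.25, 12.06 and 12.34 with siControl. No siKeap1 array reached a siControl array. The difference was -0.83 ± 0.13 with siKeap1-1 (1.78-fold lower, adjusted p = 0.000961) and -0.69 ± 0.13 with siKeap1-2 (1.61-fold lower, adjusted p = 0.00423). Rrm1, the large subunit of the same enzyme, gave 0.08 and 0.05, and Tyms, which makes thymidylate, gave -0.11 and -0.23, none of them past the threshold. One other probe set of Rrm2 gave -0.63 and -0.44, and another gave 0.04 and -0.17; the one used is of a design that can also match similar transcripts.

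Among the genes of mitotic entry, Ccna2, Ccnb2 and Cdk1 fell with siKeap1-1 and Ccna2 fell with siKeap1-2. Ccna2, the cyclin A2 of S phase and mitotic entry, measured 7.11, 7.02, 6.63 and 6.57 with siKeap1-1 and 7.05, 6.99, 6.49 and 6.45 with siKeap1-2, against 8.04, 7.76, 7.44 and 7.51 with siControl. Every array with either siRNA lay below every siControl array, by -0.86 ± 0.18 (1.81-fold lower, adjusted p = 0.00738) with siKeap1-1 and by -0.94 ± 0.18 (1.92-fold lower, adjusted p = 0.0058) with siKeap1-2. Ccnb2, a B-type cyclin of mitosis, measured 6.20, 5.82, 5.78 and 5.74 with siKeap1-1 and 6.24, 6.14, 5.83 and 5.58 with siKeap1-2, against 6.90, 6.67, 6.20 and 6.35 with siControl. One siKeap1-1 array and one siKeap1-2 array touched the siControl range. Its difference was -0.65 ± 0.18 with siKeap1-1 (adjusted p = 0.0291, and between 0.0684 and 0.0813 without any 1 of 5 arrays) and -0.58 ± 0.18 with siKeap1-2 (adjusted p = 0.058, and 0.00171 with the replicate block). Cdk1, the mitotic kinase, gave -0.36 with siKeap1-1, past the threshold, and -0.21 with siKeap1-2 (adjusted p = 0.145). Foxm1, a transcription factor of mitotic genes, gave 0.08 and 0.06 without passing.

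Of the 8 mitotic kinases and checkpoint genes, 5 fell with each siRNA. Ttk, the checkpoint kinase also called Mps1, measured 5.56, 5.19, 5.39 and 5.04 with siKeap1-1 and 5.44, 5.34, 5.36 and 5.54 with siKeap1-2, against 6.19, 5.87, 5.74 and 5.75 with siControl. Both siRNA groups lay below siControl, by -0.59 ± 0.12 (adjusted p = 0.00618) with siKeap1-1 and by -0.47 ± 0.12 (adjusted p = 0.0286) with siKeap1-2. Birc5, the survivin subunit of the chromosomal passenger complex, measured 6.97, 6.74, 7.08 and 6.36 with siKeap1-1 and 7.28, 7.19, 6.78 and 6.60 with siKeap1-2, against 8.07, 7.71, 7.31 and 7.43 with siControl. Its arrays did not overlap in either comparison, and the difference was -0.84 ± 0.21 with siKeap1-1 (1.79-fold lower, adjusted p = 0.0162) and -0.67 ± 0.21 with siKeap1-2 (adjusted p = 0.0583, and 0.00952 with the replicate block). Aurkb, the kinase of that complex, measured 6.65, 6.81, 6.83 and 6.33 with siKeap1-1 and 6.69, 6.55, 6.53 and 6.59 with siKeap1-2, against 7.39, 6.83, 7.17 and 6.96 with siControl. The siKeap1-2 arrays lay below siControl and the siKeap1-1 arrays touched it.

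The Aurkb difference was -0.43 ± 0.13 with siKeap1-1 (adjusted p = 0.0422) and -0.50 ± 0.13 with siKeap1-2 (adjusted p = 0.0275), and it lost its call without any 1 of 9 and any 1 of 5 arrays, with adjusted p up to 0.105 and 0.0743. Bub1b, the checkpoint protein BubR1, gave -0.41 and -0.42, and Cdc20, which activates the anaphase-promoting complex, gave -0.43 and -0.41, all 4 past the threshold. Bub1b lost its siKeap1-1 call without siControl array 1 (adjusted p = 0.0512) and its siKeap1-2 call without any 1 of 4 arrays (adjusted p up to 0.0608). Ttk lost its siKeap1-2 call without any 1 of 5 arrays (adjusted p up to 0.0825). Aurka, the kinase of the spindle poles, passed with siKeap1-2 only (-0.36, adjusted p = 0.0128; siKeap1-1, -0.16, adjusted p = 0.22), and its difference between the siRNAs did not pass. Bub1, a checkpoint kinase, gave -0.63 and -0.66 with adjusted p = 0.0626 and 0.0624, and Plk1, the Polo-like kinase, gave -0.02 and -0.09.

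Of the 8 spindle, kinetochore and cytokinesis genes, 4 fell with each siRNA, and Nusap1 fell the most of all members. Nusap1, a microtubule-binding protein of the spindle, measured 6.08, 6.43, 5.77 and 5.80 with siKeap1-1 and 6.34, 6.84, 5.99 and 5.42 with siKeap1-2, against 7.95, 7.37, 7.36 and 6.86 with siControl. All arrays with either siRNA lay below all siControl arrays, the siKeap1-2 group having the wider spread. The difference was -1.37 ± 0.29 with siKeap1-1 (2.58-fold lower, adjusted p = 0.00729) and -1.24 ± 0.29 with siKeap1-2 (2.36-fold lower, adjusted p = 0.0168). Its other probe set, at a mean of 3.88 with siControl and so below the array medians, gave -0.03 and -0.08. Prc1, which bundles microtubules of the central spindle, measured 9.05, 8.83, 8.39 and 8.43 with siKeap1-1 and 8.85, 8.86, 8.52 and 8.67 with siKeap1-2, against 9.64, 9.43, 9.30 and 9.31 with siControl. Again no array overlapped, and the difference was -0.75 ± 0.14 (adjusted p = 0.00425) with siKeap1-1 and -0.70 ± 0.14 (adjusted p = 0.00824) with siKeap1-2.

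Tpx2, a spindle assembly factor that activates Aurka, measured 9.33, 9.51, 9.33 and 9.30 with siKeap1-1 and 8.89, 8.96, 8.90 and 9.04 with siKeap1-2, against 9.51, 9.52, 9.77 and 9.66 with siControl. The siKeap1-2 arrays lay far below the others, by -0.67 ± 0.07 from siControl (1.59-fold lower, adjusted p = 0.000103), and the siKeap1-1 difference was -0.25 ± 0.07 (adjusted p = 0.0348, and up to 0.1 without any 1 of 6 arrays). Kif11, the motor that separates spindle poles, measured 4.29, 4.62, 4.23 and 3.73 with siKeap1-1 and 4.61, 4.39, 4.35 and 4.05 with siKeap1-2, against 5.20, 4.86, 4.50 and 5.04 with siControl. These values lie below the median of the arrays, the groups overlapped, and its call (-0.69 ± 0.19 with siKeap1-1, adjusted p = 0.0313) was lost without any 1 of 6 arrays, with adjusted p up to 0.0844. Its other probe sets gave -0.21 and -0.04 with siKeap1-1.

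Kif23, a motor of cytokinesis, measured 6.53, 6.38, 6.37 and 6.32 with siKeap1-1 and 6.04, 6.21, 6.08 and 6.12 with siKeap1-2, against 6.50, 6.35, 6.65 and 6.59 with siControl. It fell with siKeap1-2 only (-0.41 ± 0.07, adjusted p = 0.00338). Cenpa, the centromeric histone, measured 9.04, 8.76, 8.66 and 8.64 with siKeap1-1 and 9.63, 9.40, 9.34 and 9.18 with siKeap1-2, against 9.33, 8.95, 9.0 and 9.04 with siControl. Neither comparison with siControl passed (-0.30, adjusted p = 0.114, and 0.31, adjusted p = 0.126), and the Cenpa probe sets disagreed: one of the others gave -1.0 and -0.62, and another gave -0.20 and 0.0. Cenpe, a kinetochore motor, gave -0.48 and -0.54 (adjusted p = 0.0827 and 0.0631), and Kif20a, a motor of cytokinesis, gave -0.01 and -0.07.

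Of the 2 proliferation markers, Top2a fell with both siRNAs and Mki67 passed with neither. Top2a, the topoisomerase that untangles chromosomes, measured 6.82, 6.98, 6.44 and 6.57 with siKeap1-1 and 6.98, 6.97, 6.53 and 6.89 with siKeap1-2, against 7.78, 7.43, 7.33 and 7.52 with siControl. No array overlapped, and the difference was -0.81 ± 0.14 with siKeap1-1 (1.75-fold lower, adjusted p = 0.00209) and -0.67 ± 0.14 with siKeap1-2 (1.59-fold lower, adjusted p = 0.00868). Its 2 other probe sets, at means of 4.64 and 5.23 with siControl, gave 0.0 and 0.04 with siKeap1-1, and -0.02 and -0.01 with siKeap1-2. Without probe sets that may match several transcripts, Top2a therefore gave 0.04 with siKeap1-1 (adjusted p = 0.824) and -0.01 with siKeap1-2 (adjusted p = 0.956). Mki67, the Ki-67 antigen, measured 7.88, 7.68, 7.86 and 7.04 with siKeap1-1 and 7.84, 7.82, 7.53 and 7.23 with siKeap1-2, against 8.34, 8.11, 7.82 and 7.43 with siControl. The groups overlapped, and the differences of -0.31 ± 0.23 and -0.32 ± 0.23 did not pass, while both passed with the replicate block (adjusted p = 0.0383 and 0.0385).

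**Figure D3:**
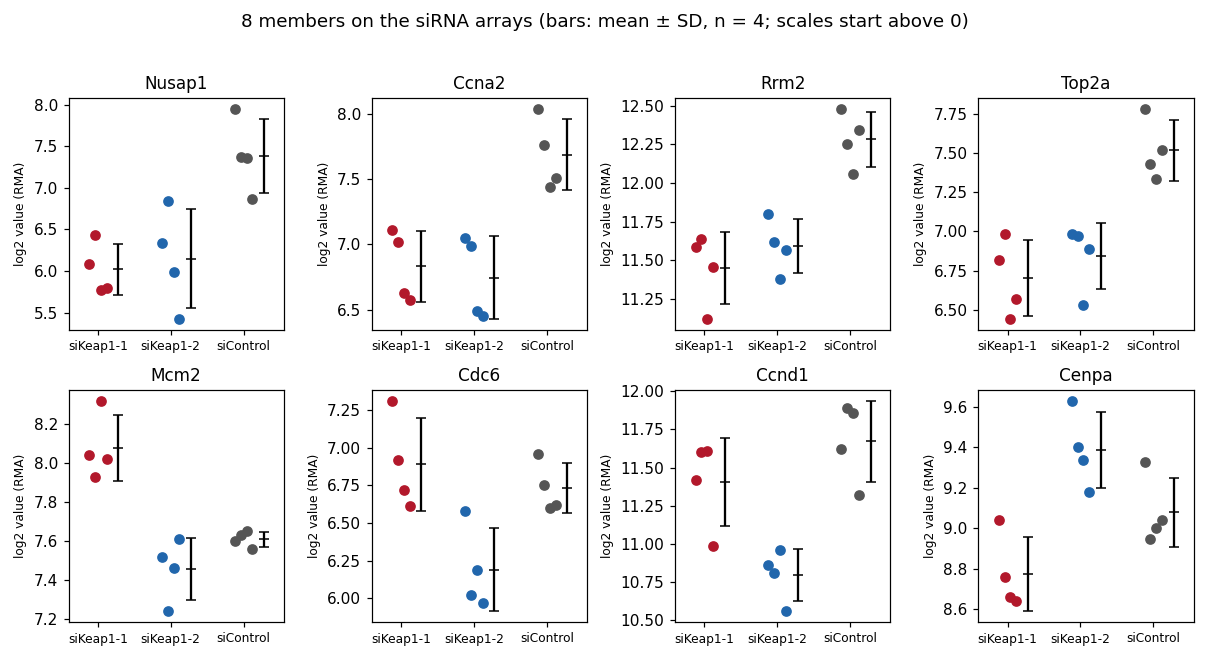
Log2 values of 8 members on the 4 arrays of each siRNA group (points), with mean ± SD (bars, n = 4); the vertical scales start above 0 and differ between panels. Nusap1, Ccna2, Rrm2 and Top2a are low in both siKeap1 groups, Mcm2 is high with siKeap1-1 alone, and Ccnd1 is low with siKeap1-2.

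Probe sets that were not used for the call mostly had the same sign. For the 15 members lower with siKeap1-1, 15 of 20 other probe sets were below 0, and for the 16 members lower with siKeap1-2, 23 of 27 were. Only the sign was counted, so values near 0 were included, such as -0.03 and -0.08 for Nusap1. Another Tpx2 probe set, at a mean of 8.34 with siControl, gave 0.01 with siKeap1-1 and -0.25 with siKeap1-2. The other Ttk probe set, at 3.90 with siControl, gave 0.03 and 0.01. The choice of probe set still decided some calls. Without probe sets that may match several transcripts, Kif11, Cdc20 and Top2a lost their calls with siKeap1-1, and Mcm5, Rrm2 (adjusted p = 0.0846), Cdc20 and Top2a lost theirs with siKeap1-2. With the mean over a gene's probe sets, Tpx2 lost its call with siKeap1-1, and Mcm7, Aurka, Ttk, Cdc20, Kif23 and Top2a lost theirs with siKeap1-2. Of the 39 members, 19 had a mean above the median gene in the siRNA experiment (7.65), so the remaining calls rest on dimmer probe sets, whose differences RMA can understate.

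The Keap1 siRNAs differed from each other at 8 of 39 members, where 7.45% of all genes passed, 3.57% higher and 3.88% lower with siKeap1-1. Given as siKeap1-1 minus siKeap1-2, higher with siKeap1-1 were Cdc6 (0.70 ± 0.16, adjusted p = 0.0229), Mcm2 (0.62 ± 0.09, adjusted p = 0.00188), Ccnd1 (0.61 ± 0.16, adjusted p = 0.0373), Mcm6 (0.50 ± 0.10, adjusted p = 0.00879), Tpx2 (0.41 ± 0.07, adjusted p = 0.00438) and Kif23 (0.29 ± 0.07, adjusted p = 0.032). Lower with siKeap1-1 were Cenpa (-0.61 ± 0.12, adjusted p = 0.00815) and Ccne1 (-0.37 ± 0.10, adjusted p = 0.0434). For each of the 8, the 4 arrays of one siRNA lay wholly above those of the other. Over all genes, 6.44% lay wholly higher and 6.75% wholly lower with siKeap1-1. The 8 were picked by their test on the same arrays, so this separation is no further support. With the replicate block, Mcm3 was the 1 member added. By role, 3 of 10 licensing and fork genes differed, all higher with siKeap1-1. Of the mitotic entry genes 0 of 4 differed, and of the mitotic kinase and checkpoint genes 0 of 8. Where 7.45% of all genes passed, counts of 0 among so few genes say little, and the roles were not compared by a test. The rest were Tpx2, Kif23 and Cenpa among the spindle, kinetochore and cytokinesis genes, and Ccnd1 and Ccne1 among the S-phase start genes, in both directions. The calls of Ccnd1, Ccne1, Cdc6 and Kif23 were lost without any 1 of 8, 8, 4 and 5 arrays, with adjusted p up to 0.105, 0.118, 0.0742 and 0.0877. Cenpa gave -0.19 (adjusted p = 0.332) without probe sets that may match several transcripts, and Ccnd1 and Kif23 lost their calls with the mean over a gene's probe sets.

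A second list of 90 cell cycle genes, of which 89 were measured, gave the setting. With siKeap1-1, 10 rose and 17 fell, with a median of -0.16, and with siKeap1-2, 6 rose and 18 fell, with a median of -0.14. Over all genes, 8.67% rose and 6.39% fell with siKeap1-1, and 6.32% rose and 4.89% fell with siKeap1-2. The rises on the list were near these shares. Cdkn1c, the CDK inhibitor p57, averaged 11.84 with siKeap1-1 and 11.78 with siKeap1-2, against 10.40 with siControl, a rise of 1.44 ± 0.08 and 1.38 ± 0.08 (adjusted p = 8.33e-07 and 1.14e-06). Cdkn2b, the CDK inhibitor p15, averaged 8.75 and 8.95, against 7.54 with siControl, a rise of 1.21 and 1.41. Cdkn1a, the CDK inhibitor p21, rose by 0.20 and 0.21, so 3 of 10 CDK inhibitors and pocket proteins rose with each siRNA and 0 fell. E2f7, a repressor of the E2F family, fell by 1.03 with siKeap1-1 and by 0.89 with siKeap1-2. Its means of 3.87 and 4.01, against 4.90 with siControl, all lay below the array medians. Ccnd2, the cyclin D2, fell by 1.02 with siKeap1-2. Hmmr, a hyaluronan receptor that also binds spindle microtubules, rose by 0.97 and 1.11, against the direction of the other 7 mitosis genes of that list that passed with each siRNA. Between the siRNAs, Ncaph, a condensin subunit (0.61), Ccnd3, the cyclin D3 (0.46), and E2f8, an E2F repressor (0.41), were higher with siKeap1-1, and E2f3, an E2F activator (-0.48), was lower.

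Some cell type markers passed in the siRNA comparisons too, where 15.1% of all genes passed with siKeap1-1 and 11.2% with siKeap1-2. Of the summed levels given here, those of the neutrophil and stem lists overlapped with siControl. Macrophage markers fell for 4 of 8 genes with siKeap1-1 and 2 of 8 with siKeap1-2, and the log2 of their summed level was 16.40 to 16.45 with siKeap1-1 and 16.39 to 16.42 with siKeap1-2, against 16.50 to 16.54 with siControl. Of 9 neutrophil and precursor markers, 2 rose with siKeap1-1 and 1 with siKeap1-2, with summed levels of 12.47 to 13.17 and 12.50 to 13.46, against 11.86 to 13.02 with siControl. Of 5 stem and progenitor markers, Flt3 fell with siKeap1-1 (-0.52), with summed levels of 10.18 to 11.01 and 10.50 to 11.12, against 10.36 to 11.09 with siControl. Of 5 dendritic cell markers, 2 fell with siKeap1-1, Ccr7 (-0.91) and Flt3, which is on both lists, and 0 with siKeap1-2, and 1 of 5 fibroblast markers, Pdgfra, rose (0.98 and 1.88). Their part in the result was not tested.

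RA839 for 4 h passed the threshold for 0 of 39 members in WT macrophages, where 0.66% of all genes passed (0.572% higher and 0.0879% lower), a share so low that a count of 0 says little about the members. No member passed with the replicate block either, where 2.67% of all genes did. At an unadjusted p under 0.05, 1 member was found, Ccnd1. The median member differed by -0.06 (log2), against -0.01 over all genes, and the 95% intervals had a median half-width of 0.47. The fit took 1 spread per gene from all 4 compound groups, so the KO arrays entered these WT intervals too. The median range of a member over 4 arrays was 0.66 in WT with RA839 and 0.48 in WT with DMSO. In KO it was 0.76 with RA839 and 0.81 with DMSO. With only the groups compared in the fit, 0 members passed as well. The highest values were Mcm5 (0.45), Ccne2 (0.40) and Mcm3 (0.33), and the lowest were Ccnd1 (-0.44), Prc1 (-0.44) and Kif23 (-0.36).

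Mcm5 measured 9.38, 10.77, 9.47 and 9.55 in WT with RA839, against 9.14, 9.62, 9.33 and 9.29 in WT with DMSO. Array 2 alone lay high, and this is the array whose Gapdh 3′ signal exceeded the 5′ signal by 3.74. Without it, Mcm5 differed by 0.12, Mcm3 by 0.10 and Ccne2 by 0.16. Ccnd1 measured 9.84, 9.79, 9.55 and 9.36 in WT with RA839, against 10.08, 10.63, 9.99 and 9.59 in WT with DMSO, with overlap between the groups (adjusted p = 0.435, and 0.0651 with the replicate block). Prc1 measured 10.79, 10.12, 10.16 and 10.21 with RA839, against 10.89, 10.86, 10.41 and 10.87 with DMSO, also with overlap (adjusted p = 0.66, and 0.0698 with the block). Both genes were lower on each RA839 array than on the DMSO array of the same number. Kif23 lay lower on all 4 RA839 arrays (8.38, 8.26, 8.28 and 7.87, against 8.56, 8.46, 8.64 and 8.57), with an adjusted p of 0.662, and of 0.0707 with the block. Cdk1 was the other of 2 members with all RA839 arrays lower (-0.24), where 2.39% of all genes did so.

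In KO macrophages, RA839 passed the threshold for 0 of 39 members and for 0 of all 18193 genes (0%). No member had an unadjusted p under 0.05, and 0 had all RA839 arrays above or below all DMSO arrays, where 1.19% and 0.923% of all genes did so. This fit did not pair the KO arrays by replicate number. In the fit with the number as a block, 0% of all genes passed as well. Bub1 then gave 0.18 ± 0.08 (SE), Kif11 gave 0.19 ± 0.11 and Mcm2 gave 0.19 ± 0.19. The members ran from -0.14 (Mki67), -0.09 (Ccna2) and -0.09 (Ccnd1) to 0.18 (Bub1), 0.19 (Kif11) and 0.19 (Mcm2), with a median of 0.03. The difference between the responses, KO minus WT, passed for 0 of 39 members, where 0.115% of all genes passed, and 0 members had an unadjusted p under 0.05. No member passed with the block either, where 0.363% of all genes did. It ran from -0.39 (Ccne2), -0.31 (Mcm5) and -0.29 (Mcm3) to 0.35 (Ccnd1), 0.35 (Kif11) and 0.46 (Prc1), with a median interval half-width of 0.67. Among the 89 other cell cycle genes, E2f6, an E2F family repressor, was the 1 gene past the threshold with RA839 in WT (0.47 ± 0.10, adjusted p = 0.0461).

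**Figure D4:**
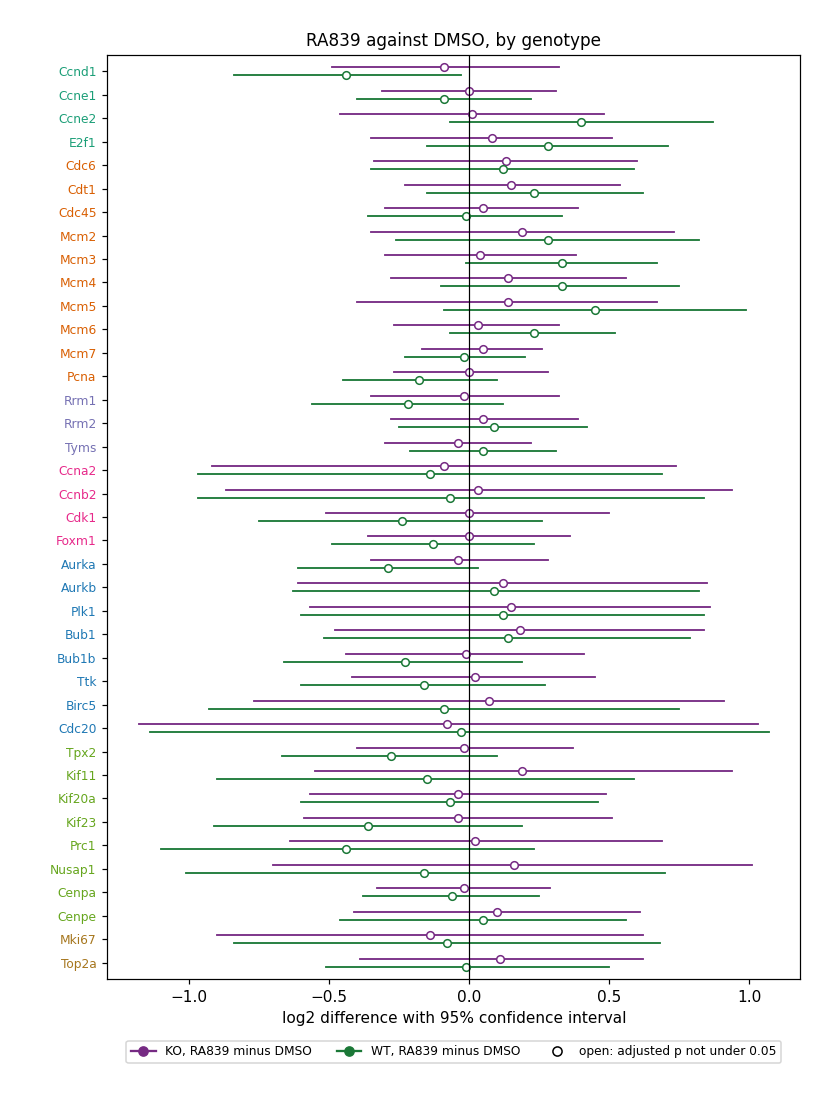
Log2 difference of RA839 from DMSO in KO (purple) and WT (green) macrophages for the 39 measured members, with 95% confidence intervals from the fit without the replicate block. All circles are open, and the values run from -0.14 to 0.19 in KO and from -0.44 to 0.45 in WT.

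Few members passed the threshold between KO and WT macrophages. In DMSO, 4 of 39 members passed between KO and WT, where 25.1% of all genes passed, and under RA839, 3 of 39 passed, where 30.4% of all genes passed, so the members' shares lay below those of all genes. The members' 95% intervals were also wider, with a median half-width of 0.47, against 0.28 over all genes, so a lower share of calls does not show that the members differed less. Given as KO minus WT, the median member differed by -0.09 in DMSO and by -0.06 under RA839. The Actb 3′ to 5′ gap also differed between the genotypes, and its part in these values was not tested.

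In DMSO, Kif23 measured 8.14, 8.39, 7.19 and 7.45 in KO, against 8.56, 8.46, 8.64 and 8.57 in WT, all KO arrays being lower (-0.76 ± 0.26, adjusted p = 0.0423). Ccne1 measured 10.35, 10.28, 10.00 and 9.97 in KO, against 10.69, 10.47, 10.57 and 10.63 in WT, again without overlap (-0.44 ± 0.15, adjusted p = 0.0385). Ccnd1 measured 9.21, 9.42, 9.61 and 9.72 in KO, against 10.08, 10.63, 9.99 and 9.59 in WT. WT array 4 fell within the KO range (-0.58 ± 0.19, adjusted p = 0.0357). Tpx2 was the 1 member higher in KO, at 10.73, 11.02, 10.15 and 10.33, against 10.04, 10.24, 9.87 and 9.97 in WT (0.53 ± 0.18, adjusted p = 0.0434), and the groups overlapped. Its other probe sets gave -0.23, -0.14 and 0.46, and the mean over all of them gave 0.15 (adjusted p = 0.157).

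None of these 4 calls held without every array. They were lost without any 1 of 7 arrays for Kif23, 5 for Ccne1, 5 for Ccnd1 and 8 for Tpx2, with adjusted p up to 0.133, 0.108, 0.105 and 0.136, and without WT with DMSO array 1 or 3, 0 of 39 members passed. The count was 2 without WT with DMSO array 2 or 4 or without KO with DMSO array 1, 2 or 4.

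Under RA839, Tpx2 measured 10.66, 10.90, 10.13 and 10.48 in KO, against 9.92, 9.72, 9.60 and 9.74 in WT, with no overlap (0.79 ± 0.18, 1.73-fold, adjusted p = 0.00399). Aurka, which Tpx2 activates, measured 7.66, 8.14, 7.40 and 7.52 in KO, against 7.11, 6.89, 7.02 and 7.0 in WT, also with no overlap (0.67 ± 0.15, 1.59-fold, adjusted p = 0.00341). With the mean over its 2 probe sets, Aurka gave 0.25 (adjusted p = 0.142). Prc1 measured 11.70, 11.87, 10.57 and 11.09 in KO, against 10.79, 10.12, 10.16 and 10.21 in WT. The groups overlapped through KO array 3, and its call (0.99 ± 0.31, adjusted p = 0.0266) was lost without any 1 of 5 arrays, with adjusted p up to 0.0835. Aurka in DMSO gave 0.42 with adjusted p = 0.0544.

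Of the 89 other cell cycle genes, 7 were higher and 9 lower in KO in DMSO, and 16 were higher and 8 lower under RA839, where 25.1% and 30.4% of all genes passed. Cdkn1c averaged 5.07 in KO, against 9.22 in WT in DMSO (-4.16 ± 0.38), and 4.90 in KO, against 9.55 in WT under RA839 (-4.65 ± 0.38). Cdkn2b was lower in KO by -1.42 and -2.76, and E2f6 by -0.74 and -1.10. Cdkn2a, which encodes the CDK inhibitor p16 and also p19Arf, was lower by -1.17 and -1.26. The KO means of Cdkn2a, 5.10 and 5.13, and those of Cdkn1c lay below the array medians. Other CDK inhibitors went the other way: Cdkn1b was higher in KO by 0.44 in DMSO and 0.33 under RA839, and Cdkn2c by 0.63 and 0.65. Markers of other cells differed between the genotypes as well: in DMSO, 3 of 9 neutrophil and precursor markers were lower in KO, with a log2 summed level of 11.01 to 11.56 in KO, against 12.12 to 12.27 in WT. Under RA839, 1 of 9 was lower. Of 5 fibroblast markers, Col1a2, Dcn and Pdgfra were lower in KO in both settings, with summed levels of 6.51 to 7.11 in KO, against 6.63 to 8.10 in WT in DMSO. Of 8 macrophage markers in DMSO, Fcgr1 and Cd14 were higher and Itgam lower in KO, with summed levels of 16.28 to 16.42 in KO, against 16.27 to 16.33 in WT. Their part in the result was not tested.

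The mitotic genes were spread widely between the arrays of the KO groups. Ccna2 measured 11.16, 11.47, 9.52 and 10.12 in KO with DMSO, against 10.86, 10.86, 10.39 and 10.80 in WT with DMSO. In KO with RA839 it measured 10.95, 11.23, 9.46 and 10.28, against 10.76, 10.73, 10.39 and 10.48 in WT with RA839. Arrays 1 and 2 of both KO groups lay above the WT arrays, and arrays 3 and 4 lay below them. Cdc20 measured 9.01, 9.08, 6.93 and 7.34 in KO with DMSO, against 8.17, 8.0, 8.55 and 8.99 in WT with DMSO. Birc5 measured 10.23, 10.47, 8.51 and 9.06 in KO with DMSO, against 10.17, 9.93, 9.90 and 10.27 in WT with DMSO. These 2 genes show the same order, with KO array 3 lowest.

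The lowest and highest array were more than 1 log2 unit apart for 14 of 39 members in KO with RA839, where 4.84% of all genes were, and for 15 in KO with DMSO, where 5.23% were. In WT this held for 7 members with RA839, where 8.07% of all genes were, and for 1 member with DMSO, where 3.99% were. Array 2 gave the highest value for 32 members in KO with RA839 and 27 in KO with DMSO, and array 3 the lowest for 28 and 29. Single arrays led in other groups too. Array 1 was highest for 25 members in siControl, and array 2 for 21 in WT with RA839. Array 3 was lowest for 23 members in WT with DMSO. These counts were not made over all genes. By role, the median deviation of the 4 mitotic entry genes ran from -0.82 to 0.54 in KO with RA839 and from -0.84 to 0.68 in KO with DMSO, while that of the 10 licensing and fork genes ran from -0.13 to 0.07 and from -0.18 to -0.04. The labels give no reason to set arrays 1 and 2 apart from arrays 3 and 4, and no test was made between them. Array numbers pair the KO groups, since the deviations of same-numbered arrays correlated at 0.66 to 0.70 over all genes. The median deviation of the neutrophil and precursor markers on arrays 1 to 4 was -0.19, 0.02, -0.67 and -0.25 in KO with RA839 and -0.02, 0.18, -0.52 and -0.42 in KO with DMSO, and that of the macrophage markers stayed between -0.13 and 0.07. Their part in the spread was not tested.

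**Figure D5:**
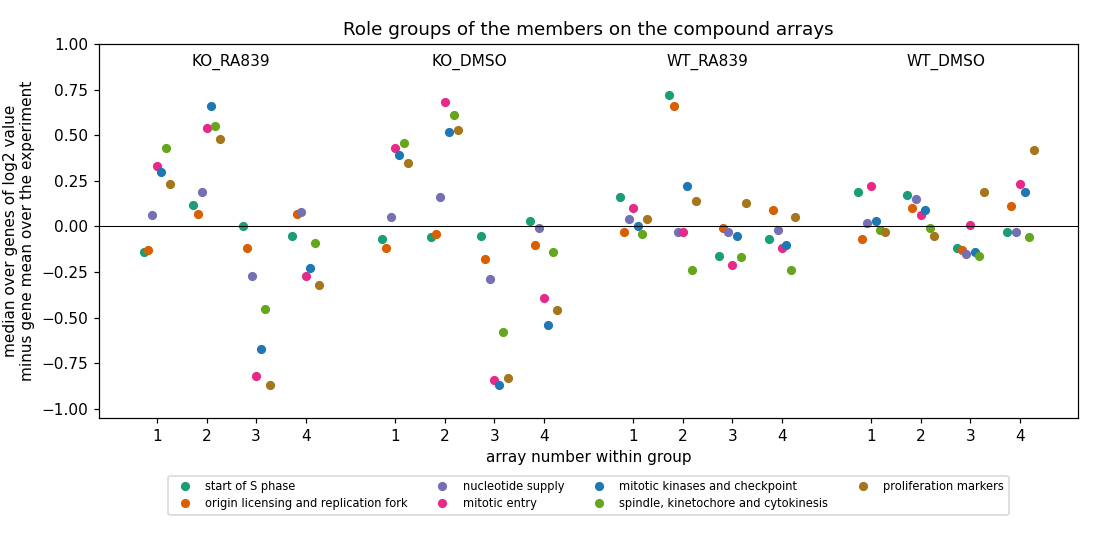
Median deviation of each role group (log2 value minus the gene's mean over the compound experiment) on the 16 compound arrays. In both KO groups the mitotic entry genes, mitotic kinases, spindle genes and proliferation markers are high on arrays 1 and 2 and low on array 3, while the licensing genes stay near 0; in WT with RA839, array 2 is high for the S-phase start and licensing genes.

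The experiments appeared to be normalized apart, so a difference in level between them is a description only. The siControl mean minus the mean of WT with DMSO was below 0 for 33 of 39 members, with a median of -0.89, where the median over all genes was 0.22. It was 0.15 for the S-phase start genes, -0.42 for the licensing and fork genes, -1.36 for mitotic entry, and -1.86 for the proliferation markers.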

How the data were processed

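Probe set values were deposited by the authors as log2 values made with RMA, per the submitters' processing notes (version and settings not given in the sources used here), 1 value per probe set and array. Each of 18193 genes was represented by its probe set with the highest mean over 28 arrays, named from the platform annotation, and 932 probe sets naming several genes were left out. The experiments appeared to be normalized apart and were fitted separately with limma 3.58.1 in R 4.3.3 (1 coefficient per group, eBayes), in 8 comparisons. A gene passed where its two-sided p, adjusted by Benjamini and Hochberg's method over all genes, was under 0.05. The members and lists were chosen with earlier results of these data known. Members past the threshold were described by the size of the difference, up to 10 rises and 10 falls in full, others by name; with fewer than 3, the 3 highest and 3 lowest were named.

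Same-numbered arrays were checked for pairing by the correlation of their deviations from the group means: 0.12 to 0.66 between siRNA groups, 0.66 to 0.70 between KO groups, 0.27 to 0.46 between WT groups, and -0.29 to -0.01 between genotypes. The numbers therefore pair arrays within a genotype and within the siRNA experiment, not between genotypes. The fit was tested on simulated data. Alternatives were a replicate block, other priors, samples, probe sets, filters and normalizations, array weights, and leaving out each array. Promoter sequences are from RefSeq (GRCm38.p6).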

Additional observations from a re-analysis of the deposited data

Results flagged for a closer look

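Within each group of 4 arrays, a value was picked out when its gap to the nearest other array exceeded Dixon's 95% critical share of the group's range. This held for 18 of 273 combinations of member and group, where chance alone gives about 1 in 20.

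Of the 18, 5 fell on WT with RA839, array 2. Mcm2 was 10.24 there, against 8.75 to 8.88 on the other arrays of the group. Mcm3 was 10.44, against 9.46 to 9.63, Mcm5 was 10.77, against 9.38 to 9.55, and Cdc20 was 9.03, against 8.11 to 8.23. Pcna was low at 12.92, against 13.50 to 13.58. The same array had the largest Gapdh 3′ to 5′ difference of the compound arrays (3.74, against 0.77 to 1.00), and its part in these values was not tested.

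The other compound arrays gave Prc1 at 10.79 and Nusap1 at 10.21 on WT with RA839, array 1 (others 10.12 to 10.21 and 9.65 to 9.75), and Ccna2 at 10.39 and Prc1 at 10.41 on WT with DMSO, array 3 (others 10.80 to 10.86 and 10.86 to 10.89).

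With siKeap1-1, array 3 had Mcm3 at 9.33 (others 8.82 to 8.90), Mcm6 at 10.43 (others 9.98 to 10.05) and Pcna at 13.53 (others 13.71 to 13.72), and array 2 had Tpx2 at 9.51 (others 9.30 to 9.33). With siKeap1-2, Mcm4 was 11.84 on array 1 (others 11.42 to 11.47) and Bub1b was 7.73 on array 2 (others 7.58 to 7.60). With siControl, E2f1 was 8.55 on array 1 (others 8.42 to 8.43), and array 3 had Mcm6 at 9.75 (others 9.95 to 9.97) and Mcm7 at 9.95 (others 9.77 to 9.78).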

How the results depend on the processing

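No member passed in any of the 3 RA839 results (WT, KO and their difference) under any alternative run, and leaving out any array gave 0 to 0 in each. Between KO and WT in DMSO the count of 4 ranged from 0 to 5 when 1 array was left out and from 3 to 6 under the other alternatives, with 2 higher and 2 lower under quantile normalization or median centring, against 1 higher and 3 lower as reported. Under RA839 the count of 3 ranged from 2 to 3 without 1 array, and was 7 with the replicate block and 5 with all 28 arrays in 1 fit. The replicate block is printed there although the numbers do not pair the genotypes.

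For siKeap1-1 the count of 16 ranged from 12 to 15 without 1 array, was 4 with all 28 arrays in 1 fit and 6 among the 19 members that stayed under the filter on brighter genes. For siKeap1-2 the count of 16 ranged from 11 to 19 without 1 array. It was 27 with the replicate block, 26 with median centring, 10 with brighter genes only (19 members measured), 9 without probe sets that may match several transcripts (33 members measured) and 3 with all 28 arrays in 1 fit. Between the siRNAs the count of 8 ranged from 4 to 8 without 1 array (4 without siKeap1-1 array 2 or siKeap1-2 array 3; 5 without siKeap1-2 array 1, 2 or 4), and was 5 with only the groups compared and 2 with all 28 arrays in 1 fit. Fewer members were tested under the filters; the other causes were not tested. No call on a paired count other than those given here and beside the results moved by over 1.5 times with the block.

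Top2a with siKeap1-1 changed sign without such probe sets, at 0.04 (adjusted p = 0.824) instead of -0.81, since another probe set stood for it. Other calls lost to the choice of probe set were given with the results; in DMSO the KO against WT call of Ccnd1 was lost with the mean over probe sets as well. Calls held under every alternative that measured the gene for Rrm2, Ttk and Nusap1 (siKeap1-1), Ccnd1 and Tpx2 (siKeap1-2), Mcm6 (between the siRNAs) and Tpx2 (KO against WT under RA839). With 4 arrays a group, the median 95% interval reached 0.47 on either side in the compound experiment and 0.26 in the siRNA experiment. Each width rests on 1 spread per gene shared by all groups of the experiment.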
